A study of Homo sapiens with 6 samples.

Results

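Histone genes were followed in the ZR-75-30 line, grown from a human breast cancer, after infection with a lentivirus that carries CDK12 (pLVX-CDK12) or with the control virus (pLVX). The 6 libraries, 3 CDK12 and 3 control, hold poly(A)-captured RNA read as gene counts, and each group is the same line with its own virus. CDK12 is a kinase that phosphorylates RNA polymerase II during elongation, and the series was made to look for its targets. The members are the rows whose symbol begins with HIST1H to HIST4H, H1F, H2AF or H3F3, a rule on symbols that uses no measured value, although it was set with earlier results of these data known. They number 91 of the 26364 rows. Of these, 73 are HIST genes, here called replication-dependent by their symbol, and 3 of the 73 are pseudogenes. Another 17 are grouped as replacement histone genes, a pseudogene among them. The remaining row, H1FX-AS1, is an antisense RNA that shares its name with H1FX. The series' design text calls the replicates biological but does not say whether they came from separate infections, so the p-values speak only of variation among the 6 libraries, which may be technical.

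Histones package DNA. An octamer of H2A, H2B, H3 and H4 forms the nucleosome core, and the linker histone H1 binds where the DNA enters and leaves it. HIST genes lie in clusters, lack introns for the most part and are transcribed mainly in S phase, when new DNA needs histones. Their messages usually end in a stem-loop that the protein SLBP binds, not in a poly(A) tail, although some HIST genes also give polyadenylated messages. Replacement histone genes are expressed through the cell cycle, some have introns, and their messages mostly carry poly(A) tails. A poly(A)-captured library is therefore expected to read HIST genes mainly through their polyadenylated messages. Whether the HIST reads here come from such messages was not tested.

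The 2 kinds of message end can be seen in the annotated transcripts. The stem-loop was searched for in GENCODE 29 transcripts on the RNA strand as 16 bases with CTTTT, any base and AG in the middle, whose first 6 and last 6 bases pair perfectly around a 4-base loop. It was found in 30 of the 73 HIST rows and in 1 of the replacement genes, H2AFX, and in 0.357% of the 19583 protein-coding genes outside the histone rows. Many GENCODE models of HIST genes stop at the end of the coding sequence, so a gene without a match may still have the element. The sites below are those of HIST genes that passed the test, of their unusual relative H2AFX and of HIST4H4, a neighbour of H2AFJ. Capitals mark the pairing stem, the lower-case letters between them the loop, and 5 flanking bases are shown on each side.
HIST2H2BE: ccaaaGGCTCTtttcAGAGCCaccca
HIST1H2AC: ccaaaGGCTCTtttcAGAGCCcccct
HIST1H2BC: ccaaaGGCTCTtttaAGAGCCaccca
HIST1H2BD: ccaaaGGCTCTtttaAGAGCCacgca
HIST1H2BN: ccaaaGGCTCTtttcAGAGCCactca
HIST4H4: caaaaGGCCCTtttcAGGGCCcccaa
H2AFX: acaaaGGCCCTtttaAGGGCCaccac
On GRCh38 these lie at chr1:149886183-149886208 on the minus strand (HIST2H2BE), chr6:26124664-26124689 on the plus strand (HIST1H2AC) and chr6:26123467-26123492 on the minus strand (HIST1H2BC). The others lie at chr6:26158582-26158607 on the plus strand (HIST1H2BD), chr6:27839085-27839110 on the plus strand (HIST1H2BN), chr12:14770719-14770744 on the minus strand (HIST4H4) and chr11:119094893-119094918 on the minus strand (H2AFX). The stem is the same in the H2A and H2B genes of the HIST clusters shown and differs in HIST4H4 and H2AFX. For HIST2H2BE the longest annotated transcript runs 1729 bases past the stem-loop, for HIST1H2AC 1128 bases and for H2AFX 1044 bases. A transcript that runs more than 100 bases past the stem-loop was found for 21 HIST rows. Of these, 13 reached 10 counts in at least 3 libraries, against 3 of the 9 with a shorter tail. That difference was not tested. No read in any library was found for 4 of the 21 and 2 of the 9, all of them duplicated HIST2 genes described below.

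The reads were unevenly spread over the members. The replacement genes took 235458 reads over the 6 libraries and the HIST rows 34662. Replication-dependent genes made up 12.1%, 11.8% and 12.1% of histone reads in the CDK12 libraries, against 13.9%, 13.6% and 13.9% in the controls. The groups did not overlap. This share depends on the reads of both classes, and the replacement gene H1F0 rose, as given below. The part of each class in the difference was not tested. The 6 HIST genes with the most reads, HIST1H1C, HIST1H2BK, HIST1H2BD, HIST1H2AC, HIST2H2BE and HIST1H4H, held 80.6% to 83.1% of HIST reads in the CDK12 libraries and 83.9% to 84.9% in the controls. A total of 35 rows reached 10 counts in at least 3 libraries, 25 HIST genes, 9 replacement genes and the antisense row. The other 56 rows held at most 58 reads each over all 6 libraries, and 20 had none in any.

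Near-identical copies and overlapping gene models limit what can be read. Of the 13 rows in which under 10% of 100-base transcript windows are unique among GENCODE 29 transcripts, 10 had no read in any library. They include the duplicated HIST2 genes HIST2H2AA3, HIST2H2AA4, HIST2H3A, HIST2H3C, HIST2H4A and HIST2H4B. For HIST1H3D and HIST1H2AK, also among the 13, the shared windows belong to gene models that overlap them. H3F3A, which encodes the same H3.3 protein as H3F3B, is listed at 0 in 5 libraries and at 1 in a CDK12 library, although 89.7% of its windows are unique in that annotation. No level of H3F3A can be taken from these files, and the H3.3 message is represented here by H3F3B. How reads that map to several places or overlap several genes were counted is not given in the sources used here.

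Library totals ran from 23628890 to 26543653 counts in the CDK12 group and from 21178163 to 25014857 in the controls, so that 3 counts, the limit that a count of 0 allows, correspond to 0.111 to 0.144 CPM. CPM, the usual unit of counts relative to library size, is given here after TMM scaling, and the floor covers counting error only. CDK12 itself stood at 2007, 2238 and 2123 CPM in the CDK12 libraries, against 78.9, 81.7 and 72.7 CPM in the controls, and each library matched its label (log2 fold change 4.77, SE 0.05, edgeR quasi-likelihood, adjusted p = 1.1e-31). An exact two-sided permutation test of CDK12 gave p = 0.1, and no comparison of 3 with 3 libraries can go lower. The cyclin partner gene CCNK (log2 fold change -0.09, adjusted p = 0.153) and the related kinase gene CDK13 (-0.10, adjusted p = 0.0664) did not pass. The counts cannot part viral from endogenous CDK12 message. All 9 luminal epithelial markers were detected and tested (0 higher, 4 lower), while 7 of 11 markers of leukocytes, endothelium, fibroblasts and basal cells stayed under 10 counts in every library. The summed level of that second list was 62.2 to 73.6 CPM in the CDK12 libraries and 51.1 to 56.6 CPM in the controls. Of the 4 tested, 1 was higher and 2 lower. Most of the sum was COL1A1, a collagen gene with 59.9 to 70.8 CPM in CDK12 and 45.4 to 50.2 CPM in control libraries, while the leukocyte gene PTPRC stood at 0.292 to 0.412 CPM in CDK12 and 2.83 to 3.03 CPM in control libraries. COL3A1, another collagen gene, lay at 0.037 to 0.167 CPM in CDK12 and 0.568 to 0.623 CPM in control libraries (log2 fold change -2.44, edgeR adjusted p = 0.000181). Their part in the histone results was not tested. CDK12 replicate 1 stood somewhat apart from its group by chi-square on counts, at 4.54 and 4.43 per degree of freedom against the other CDK12 libraries. The remaining pairs of either group gave 2.74 to 2.94. Correlations of log CPM did not set it apart, at 0.9961 for both its pairs and 0.996 to 0.9963 for the others.

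The comparison of CDK12 with control cells was run over all 14665 genes that passed edgeR's filter, with p-values adjusted by Benjamini-Hochberg over all of them and a threshold of 0.05. It called 35.1% of genes, 16.2% higher and 18.9% lower in the CDK12 libraries. With upper-quartile factors it called 36.2%, 21.6% higher and 14.6% lower, and with total counts alone 36.7%, 22.7% higher and 14.1% lower. Of the histone rows 34 were tested, and HIST1H2BF reached 10 counts in 3 libraries without passing the filter. Of 9 replacement genes tested, H1F0 and H2AFJ rose, H2AFX fell and 6 did not pass. Of 24 HIST rows tested, HIST1H1D and HIST1H2BN rose, HIST2H2BE, HIST1H2BC, HIST1H2AC, HIST1H2BD and HIST1H2BK fell, and 17 did not pass. That is 33.3% of the replacement and 29.2% of the HIST rows, near the share of all genes, so the number of calls does not set the histone genes apart. The median log2 fold change was 0.04 for the replacement genes and 0.05 for the HIST rows, beside 0.00 for all genes tested. HIST1H4K is the sole tested row that passed the filter through the CDK12 libraries alone.

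**Figure D1:**
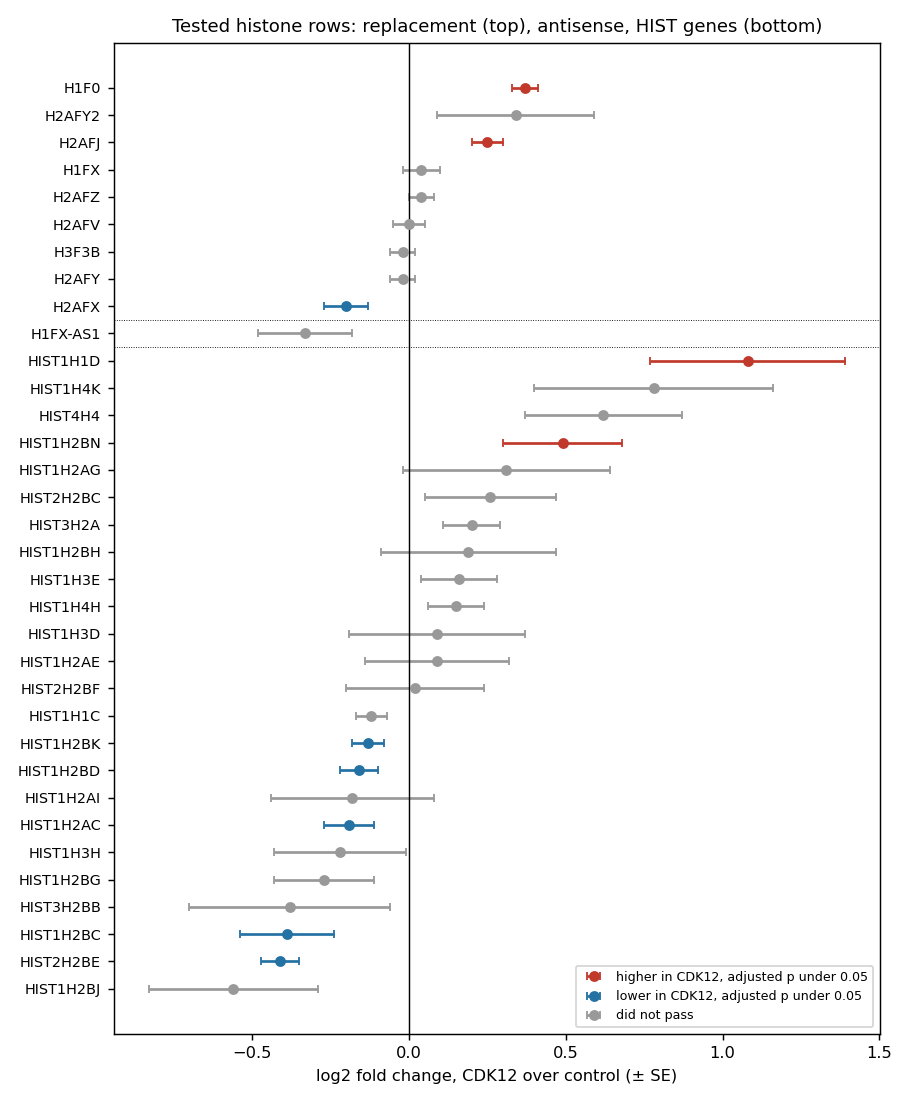
Log2 fold change of CDK12 over control cells with its standard error for the 34 histone rows tested, replacement genes at the top, the antisense row below them and HIST genes at the bottom, ordered by fold change. H1F0, H2AFJ, HIST1H1D and HIST1H2BN lie to the right of 0 past the threshold, and H2AFX and 5 HIST genes to the left.

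Among linker histones, H1F0 and HIST1H1D rose and the other tested genes did not pass. H1F0 encodes H1.0, a linker variant that accumulates in differentiated and resting cells. It stood at 576, 564 and 557 CPM in the CDK12 libraries, against 443, 430 and 438 CPM in the controls. All 3 CDK12 libraries lay above all 3 controls, with little spread within either group. The log2 fold change was 0.37 (SE 0.04), a 1.30-fold rise, with an adjusted p of 1.82e-08 by edgeR's quasi-likelihood test, and the exact permutation p was the smallest possible, 0.1. Each alternative scaling, filter, test and left-out library gave a call, with log2 fold changes of 0.36 to 0.42.

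HIST1H1C, the gene of the linker H1.2, stood at 64.5, 58.0 and 54.9 CPM in the CDK12 libraries and at 63.5, 63.1 and 66.3 CPM in the controls. CDK12 replicate 1 lay within the control range and the other CDK12 libraries below it. The difference did not pass (log2 fold change -0.12, SE 0.05, edgeR adjusted p = 0.0865), but it did without CDK12 replicate 1 (adjusted p = 0.00681). H1FX, which encodes the linker variant H1.10, stood at 153, 136 and 144 CPM in the CDK12 libraries and at 138, 124 and 159 CPM in the controls. The control range held the CDK12 libraries, and the log2 fold change was 0.04 (SE 0.06, edgeR adjusted p = 0.641). Its antisense row H1FX-AS1 overlaps it, and since the strand setting of the counting is not given, reads of the pair cannot be told apart.

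HIST1H1D, the gene of H1.3, was read at low depth. It had 27, 16 and 25 reads in the CDK12 libraries, against 8, 11 and 10 reads in the controls. The lowest CDK12 library lay above the highest control. The log2 fold change was 1.08 (SE 0.31, edgeR adjusted p = 0.00808), the largest rise among the members tested, although the DESeq2 Wald test did not call it (adjusted p = 0.0567). HIST1H1E held 48 reads over the 6 libraries, HIST1H1B, HIST1H1T and HIST1H1A fewer, and none of these was tested.

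As shares of the linker histone reads, these values moved the composition by several percentage points. H1F0 took 72.5%, 74.3% and 73.5% of them in the CDK12 libraries, against 68.6%, 69.6% and 65.9% in the controls. HIST1H1C took 7.67% ± 0.43 in CDK12 and 10.01% ± 0.18 in control libraries (SD, n = 3 each), without overlap. H1FX took 17.9% to 19.2% in CDK12 and 20.1% to 23.9% in control libraries. The shares are of reads and not corrected for message length, and they depend on each other since they add up to the whole.

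The H2A variants outside the HIST clusters did not move together. H2AFJ, the gene of H2A.J, a variant known to accumulate in senescent human cells, stood at 67.0, 64.1 and 65.9 CPM in the CDK12 libraries, against 55.1, 52.9 and 57.6 CPM in the controls. Every CDK12 library lay above every control. H2AFJ rose with a log2 fold change of 0.25 (SE 0.05, edgeR adjusted p = 0.000308), and its share of all H2A reads was 9.38% ± 0.17 in CDK12 and 7.95% ± 0.41 in control libraries (SD, n = 3 each). It was called under every alternative run, with log2 fold changes of 0.22 to 0.29.

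H2AFX encodes H2A.X, which is phosphorylated around DNA double-strand breaks, and its message can end either at the stem-loop printed above or in a poly(A) tail. The level was 27.7, 22.5 and 25.1 CPM in the CDK12 libraries and 26.9, 29.05 and 30.6 CPM in the controls. The groups overlapped, since CDK12 replicate 1 lay above control replicate 1. H2AFX fell by 0.20 on the log2 scale (SE 0.07, edgeR adjusted p = 0.0317). The call was lost with upper-quartile factors, with total counts, with the DESeq2 Wald test and without any 1 of 4 libraries, at adjusted p-values up to 0.213.

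The genes of H2A.Z, macroH2A and their relatives showed no call. H2AFZ, which encodes an H2A.Z found at promoters, stood at 169, 155 and 154 CPM in the CDK12 libraries and at 150, 159 and 157 CPM in the controls. H2AFV, the other H2A.Z gene, was at 75.5, 74.8 and 78.7 CPM in the CDK12 libraries and at 72.6, 79.2 and 77.2 CPM in the controls. H2AFY, which encodes macroH2A1, was at 341, 336 and 325 CPM in the CDK12 libraries and at 336, 346 and 337 CPM in the controls. For each of these genes the groups overlapped, and the log2 fold changes lay between -0.02 and 0.04 with SE of 0.04 to 0.05. H2AFY2, the gene of macroH2A2, had 24, 34 and 38 reads in the CDK12 libraries and 21, 26 and 22 in the controls and did not pass (log2 fold change 0.34, SE 0.25). The germline variants H2AFB1, H2AFB2 and H2AFB3 had no reads. At most 20.5% of the 100-base windows of each are unique, so no level of them can be taken from these files.

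H3.3, the replacement form of H3 that is laid down outside S phase, was read through H3F3B. It stood at 336, 334 and 324 CPM in the CDK12 libraries and at 335, 341 and 330 CPM in the controls. The groups overlapped, and the log2 fold change was -0.02 (SE 0.04, edgeR adjusted p = 0.773). H3F3C, a primate-specific relative, had at most 5 reads in a library. Without H1F0, the summed level of the replacement genes was 1138 ± 27.7 CPM in CDK12 and 1132 ± 17.4 CPM in control libraries, and with it 1704 ± 37.4 CPM in CDK12 and 1569 ± 15.7 CPM in control libraries (SD, n = 3 each). With TMM the sums without H1F0 overlapped between the groups, while with scaling by total counts alone they lay apart, with a change of the mean of 3.48%.

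**Figure D2:**
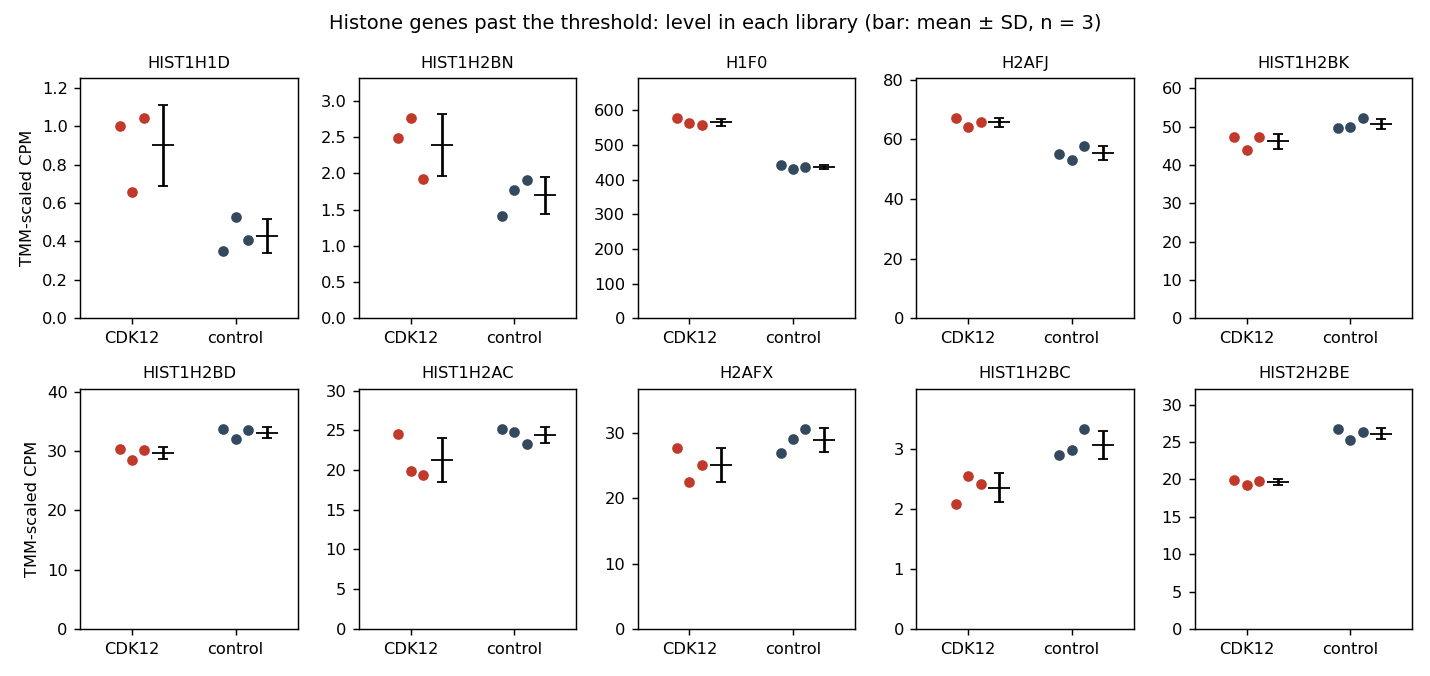
TMM-scaled CPM in each library for the 10 histone genes past the threshold, CDK12 libraries at the left and controls at the right of each panel, ordered from the largest rise to the largest fall. Points are libraries and the bar is the mean with its SD over 3 libraries; the groups overlap for HIST1H2AC and H2AFX and are apart for the other 8.

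Of the 5 HIST genes that fell, 4 were among the 11 H2B rows tested, and of these 4 only HIST2H2BE kept its call under all 14 alternatives. HIST2H2BE, an H2B gene of the smaller cluster on chromosome 1 known to give polyadenylated messages, stood at 19.9, 19.2 and 19.8 CPM in the CDK12 libraries, against 26.7, 25.3 and 26.3 CPM in the controls. All CDK12 libraries lay well below all controls. It fell by 0.41 on the log2 scale (SE 0.06), a level 1.33-fold lower, with an edgeR adjusted p of 1.42e-05. It was called under every alternative run, with log2 fold changes of -0.43 to -0.37, and took 18.2% ± 0.19 of HIST H2B reads in CDK12 and 21.1% ± 0.43 in control libraries (SD, n = 3 each).

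The other H2B falls were smaller or rested on fewer reads, and none was called under all alternatives. HIST1H2BD was at 30.3, 28.4 and 30.1 CPM in the CDK12 libraries, against 33.7, 32.0 and 33.5 CPM in the controls, a log2 fold change of -0.16 (SE 0.06, edgeR adjusted p = 0.0364). HIST1H2BK was at 47.2, 43.8 and 47.4 CPM in the CDK12 libraries, against 49.7, 50.04 and 52.2 CPM in the controls, a log2 fold change of -0.13 (SE 0.05, edgeR adjusted p = 0.04996). In each of these genes the groups were apart by a small margin. Of the 100-base windows of HIST1H2BK 71.6% are unique, the rest being shared with another gene. The annotated span of HIST1H2BD overlaps other genes, so the reads of both are uncertain. HIST1H2BC had 56, 62 and 58 reads in the CDK12 libraries and 66, 62 and 82 in the controls, a log2 fold change of -0.39 (SE 0.15, edgeR adjusted p = 0.0467). Of 14 alternatives, HIST1H2BD lost its call under 8, HIST1H2BK under 11 and HIST1H2BC under 12.

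In the opposite direction, HIST1H2BN had 67, 67 and 46 reads in the CDK12 libraries, against 32, 37 and 47 in the controls. Its CPM values lay just apart, since the lowest CDK12 library was at 1.92 and the highest control at 1.91 CPM. HIST1H2BN rose with a log2 fold change of 0.49 (SE 0.19, edgeR adjusted p = 0.0386), and the call was lost under 7 of 14 alternatives. Its annotated span overlaps HIST1H2AK and HIST1H2AL, so its reads are uncertain. Of the 11 H2B rows tested, 4 fell, 1 rose and 6 did not pass, beside 18.9% of all genes called lower and 16.2% higher. The middle of their log2 fold changes was -0.16, beside 0.00 for all genes tested. Among those that did not pass were HIST1H2BJ, which had 20, 15 and 15 reads in CDK12 and 28, 19 and 20 reads in control libraries, and HIST2H2BC, a pseudogene.

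The summed level of the 20 HIST H2B rows was 110, 105 and 110 CPM in the CDK12 libraries, against 124, 120 and 127 CPM in the controls. The groups were apart, and remained so without HIST2H2BE, at 85.7 to 90.4 CPM and 95.1 to 100.4 CPM in the same order. The summed level of the 15 HIST H4 rows ran the other way, at 16.3, 17.5 and 16.7 CPM in the CDK12 libraries. In the controls it was 15.6, 13.0 and 15.6 CPM. Most of that sum was HIST1H4H, with a mean of 14.4 CPM in CDK12 and 12.9 CPM in control libraries. HIST1H4H did not pass, its groups overlapped, and the H4 sum was not recomputed without it. For the HIST genes of H1, H2A and H3 the summed levels of the groups overlapped. All 73 HIST rows together gave 241, 226 and 230 CPM in the CDK12 libraries and 250, 246 and 257 CPM in the controls, a change of the mean of -7.38%. With scaling by total counts alone these sums overlapped between the groups, while the H2B and H4 sums stayed apart. In bulk RNA, fewer cells that express a gene and less message per cell cannot be told apart.

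**Figure D3:**
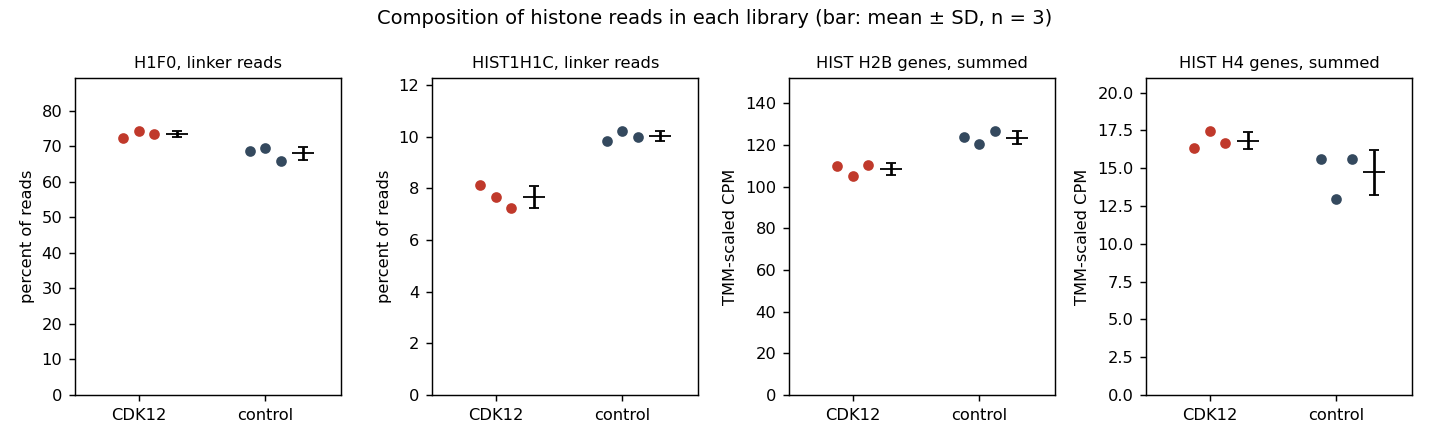
Share of linker histone reads taken by H1F0 and by HIST1H1C, in percent, and summed TMM-scaled CPM of the 20 HIST H2B rows and of the 15 HIST H4 rows, in each CDK12 and control library. Bars give the mean with its SD over 3 libraries; in all 4 panels the CDK12 and control libraries do not overlap, with H1F0 and H4 higher and HIST1H1C and H2B lower in CDK12.

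Of 5 HIST H2A rows tested, HIST1H2AC fell and 4 did not pass. HIST1H2AC stood at 24.5, 19.9 and 19.4 CPM in the CDK12 libraries, against 25.2, 24.8 and 23.3 CPM in the controls. CDK12 replicate 1 lay among the controls and the other CDK12 libraries below them. The log2 fold change was -0.19 (SE 0.08, edgeR adjusted p = 0.0485), and -0.31 (adjusted p = 0.00119) without CDK12 replicate 1. The call was lost under 9 of 14 alternatives. HIST3H2A, a gene of the small HIST3 cluster, had 319, 284 and 309 reads in the CDK12 libraries and 202, 240 and 281 in the controls and did not pass (log2 fold change 0.20, SE 0.09, edgeR adjusted p = 0.103).

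None of the HIST genes of H3 and H4 passed. HIST1H3E averaged 5.65 ± 0.75 CPM in CDK12 and 5.03 ± 0.22 CPM in control libraries (SD, n = 3 each). HIST1H4H stood at 13.7, 15.1 and 14.3 CPM in the CDK12 libraries and at 13.8, 11.1 and 13.9 CPM in the controls, with overlap (log2 fold change 0.15, SE 0.09). HIST4H4, the sole row with the HIST4 prefix, had 31, 27 and 27 reads in the CDK12 libraries, against 19, 15 and 16 in the controls. The groups were apart, yet the adjusted p was 0.05055 by edgeR (log2 fold change 0.62, SE 0.25), and it passed under the 3 other scalings (adjusted p down to 0.03599). HIST1H4K had 13, 15 and 10 reads in CDK12 and 7, 6 and 7 in control libraries, and no 100-base window of it is unique, HIST1H4J holding the same sequence. Of the 24 HIST rows tested, 5 lay apart and higher and 5 apart and lower in CDK12. For all genes tested, 22.1% lay apart and higher and 23.6% apart and lower.

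Position gave no common direction. Of the 31 tested members with a start in the RefSeq table, 6 pairs start within 5000 bases of each other, and the log2 fold changes had the same sign in 3. HIST1H2BC and HIST1H2AC start 246 bases apart on opposite strands, at chr6:26123926 and chr6:26124172 on GRCh38.p14, and both fell. HIST4H4 and H2AFJ start 3274 bases apart on opposite strands of chromosome 12, with log2 fold changes of 0.62 and 0.25. HIST3H2A and HIST3H2BB start 230 bases apart, with log2 fold changes of 0.20 and -0.38, and neither passed. In the main cluster on chromosome 6, 2 genes rose, 4 fell and 12 did not pass, a share called of 33.3%, beside 35.1% of all genes, while HIST2H2BE was the sole call among 3 genes tested in the HIST2 cluster.

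Promoters of 79 histone rows, from 250 bases before to 50 bases after the RefSeq start on GRCh38.p14, were searched on both strands for the octamer ATTTGCAT, the letters CCAAT and the TATA letters TATAAA. The octamer, a site that POU2F1 (OCT1) is known to bind in H2B promoters, was found in 14 of 18 HIST H2B, 11 of 16 HIST H2A, 1 of 12 HIST H3 and none of 13 HIST H4 promoters, and in 1.77% of all 35116 promoters of the same length. CCAAT was found in 55 and TATAAA in 43 of 65 HIST promoters, against 34.6% and 11.5% of all promoters. Of 11 tested HIST rows with the octamer, 4 fell and none rose, and of 12 whose promoter lacks it, 1 fell and 2 rose, beside 18.9% of all genes called lower and 16.2% higher. The difference between these sets was not tested, and of the 4 falls HIST1H2BC, HIST1H2AC and HIST1H2BK lost their call under most alternatives. The 11 rows with the octamer are also not all separate promoters. HIST1H2BC and HIST1H2AC start 246 bases apart, so their searched stretches overlap, and the octamer printed below for HIST1H2AC lies in both. The searched stretches also overlap for HIST1H2BG with HIST1H2AE and for HIST1H2BJ with HIST1H2AG, which start 233 and 248 bases apart. The sets also differ in histone type, since 7 of the 11 rows with the octamer are H2B genes. Among H2B rows alone, 3 of 7 with the octamer fell and none rose, and of 3 without it 1 fell and 1 rose. That difference was not tested either. The 4 promoters below are those of the HIST gene with the firmest fall, of HIST1H2AC, which shares its start region with HIST1H2BC, and of HIST1H2BN and H2AFJ, which rose. Capitals mark the searched letters.
HIST2H2BE: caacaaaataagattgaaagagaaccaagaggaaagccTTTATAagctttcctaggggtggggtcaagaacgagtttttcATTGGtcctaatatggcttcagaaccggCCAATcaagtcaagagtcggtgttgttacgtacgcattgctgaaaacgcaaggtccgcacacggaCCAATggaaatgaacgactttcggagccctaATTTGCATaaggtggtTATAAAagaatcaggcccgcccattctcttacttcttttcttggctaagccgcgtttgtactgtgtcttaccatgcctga
HIST1H2AC: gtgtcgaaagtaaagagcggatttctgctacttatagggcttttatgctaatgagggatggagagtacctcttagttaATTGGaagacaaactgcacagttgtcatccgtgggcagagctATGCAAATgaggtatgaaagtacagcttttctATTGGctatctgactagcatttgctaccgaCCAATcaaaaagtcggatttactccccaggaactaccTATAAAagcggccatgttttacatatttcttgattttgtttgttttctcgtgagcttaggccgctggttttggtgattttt
HIST1H2BN: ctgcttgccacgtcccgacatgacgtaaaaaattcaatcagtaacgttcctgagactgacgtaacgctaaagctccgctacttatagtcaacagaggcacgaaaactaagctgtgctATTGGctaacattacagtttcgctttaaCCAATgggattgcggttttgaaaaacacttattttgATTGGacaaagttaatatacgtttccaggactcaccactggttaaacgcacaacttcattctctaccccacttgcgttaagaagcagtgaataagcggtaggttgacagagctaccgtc
H2AFJ: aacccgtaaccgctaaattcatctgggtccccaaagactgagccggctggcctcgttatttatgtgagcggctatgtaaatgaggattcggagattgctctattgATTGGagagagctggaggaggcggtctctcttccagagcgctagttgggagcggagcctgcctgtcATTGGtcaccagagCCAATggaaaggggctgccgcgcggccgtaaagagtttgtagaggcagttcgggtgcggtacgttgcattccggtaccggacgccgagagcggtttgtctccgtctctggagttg
They lie at chr1:149886633-149886932 on the minus strand, chr6:26123922-26124221, chr6:27838319-27838618 and chr12:14774155-14774454 on the plus strand, in the order given. In HIST2H2BE the octamer starts 46 bases and the TATA letters 30 bases before the start of transcription. In HIST1H2AC the octamer is on the opposite strand, 130 bases before the start. A match is a run of letters and not evidence that a factor binds there, and the promoter of H1F0 was not among those searched.

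The factors that make and end histone messages were mixed. Of 26 genes for histone gene transcription and 3' end processing, 4 rose, 5 fell and 17 did not pass, which is near the 35.1% of all genes called. Their median log2 fold change was -0.04. NPAT, the cyclin E/CDK2 substrate that activates HIST genes, averaged 22.6 ± 1.04 CPM in CDK12 and 20.99 ± 0.69 CPM in control libraries and did not pass (SD, n = 3 each, edgeR adjusted p = 0.228). SLBP, the stem-loop binding protein, was at 69.9 ± 3.27 and 70.4 ± 3.82 CPM in the same order and did not pass. CASP8AP2, which encodes FLASH, a partner of NPAT and of the U7 processing particle, rose to 33.6 ± 1.21 CPM in CDK12, against 28.7 ± 0.72 CPM in control libraries (SD, n = 3 each), with a log2 fold change of 0.23 (SE 0.06, edgeR adjusted p = 0.00353).

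SYMPK, the scaffold of the histone cleavage complex, and CSTF3, a subunit of the cleavage stimulation factor of polyadenylated messages, rose with log2 fold changes of 0.25 and 0.34. CPSF1, a large subunit of the polyadenylation factor CPSF, fell by 0.20 on the log2 scale and POU2F1 by 0.23. E2F1, the cell cycle transcription factor, was at 17.7 ± 1.74 CPM in CDK12 and 23.99 ± 1.01 CPM in control libraries (SD, n = 3 each) and fell by 0.44 on the log2 scale (SE 0.07, edgeR adjusted p = 3.33e-05). Of 10 genes for translation and decay of histone messages, UPF1, a helicase of message decay, fell (log2 fold change -0.14) and 9 did not pass. UPF1 did not pass under 6 of 14 alternatives.

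Of 31 histone chaperone and deposition genes, 10 fell, 2 rose and 19 did not pass, beside 35.1% of all genes called and 18.9% called lower. Their median log2 fold change was -0.04. IPO4, an importin that carries new H3 and H4 into the nucleus, stood at 70.6, 68.3 and 68.3 CPM in the CDK12 libraries, against 96.8, 90.9 and 97.2 CPM in the controls. The groups were far apart (log2 fold change -0.46, SE 0.05, edgeR adjusted p = 9.6e-09). DNAJC9, a co-chaperone of H3 and H4, fell by 0.35 on the log2 scale, and HIRA, the chaperone that deposits H3.3 outside replication, fell to 55.9 ± 0.20 CPM in CDK12, against 67.2 ± 1.72 CPM in control libraries (SD, n = 3 each). NAP1L1, a chaperone of H2A and H2B, and ATRX, a remodeller that works with DAXX on H3.3, rose with log2 fold changes of 0.15 and 0.13, and each lost its call under 3 of 14 alternatives.

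Most S-phase genes tested fell in the CDK12 libraries, where the HIST H2B sum was lower, the H4 sum higher and the H1, H2A and H3 sums overlapped with the controls. Of 26, 18 fell, 0 rose and 8 did not pass. Their median log2 fold change was -0.25, beside 0.00 for all genes tested and 18.9% of all genes called lower. E2F1, which fell, and SLBP, which did not pass, are also counted above among the genes for transcription and 3' end processing. The helicase genes MCM3, MCM4 and MCM5 fell by 0.31, 0.37 and 0.46 on the log2 scale. The summed level of the list was 1221 to 1259 CPM in the CDK12 libraries and 1418 to 1491 CPM in the controls. Whether this list's fall has a part in the histone values was not tested.

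**Figure D4:**
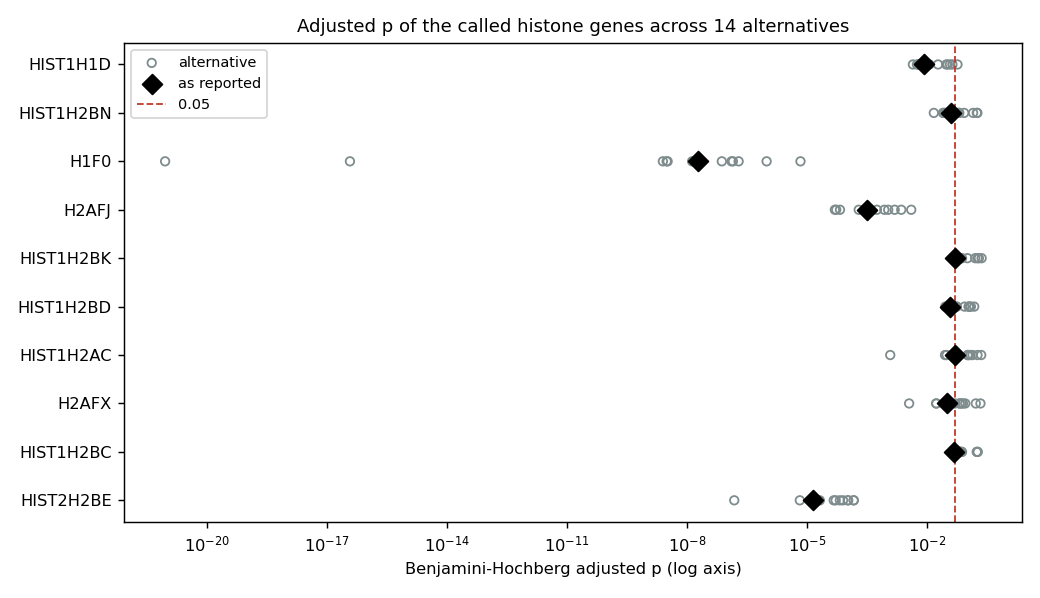
Benjamini-Hochberg adjusted p, on a log axis, of the 10 called histone genes as reported (diamonds) and under 14 alternative scalings, filters, tests and left-out libraries (circles), with the threshold of 0.05 as a dashed line. All circles of H1F0, H2AFJ and HIST2H2BE lie left of the line, HIST1H1D has 1 to its right and each of the other 6 genes has several.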

How the data were processed

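Polyadenylated RNA of 6 libraries of ZR-75-30 cells, 3 CDK12 and 3 control, was read with a stranded kit, per the labels. The deposited values are raw counts per gene symbol, which the authors made with CASAVA 1.8, STAR 2.6.0c and featureCounts of Subread 1.6.2 on hg19, per the submitters' processing notes. For the annotation, the strand setting and reads with several matches, the answer is not given in the sources used here.

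Genes were filtered with filterByExpr of edgeR 4.0.16 (minimum count 10, minimum total 15), scaled by TMM and compared with its quasi-likelihood F test, group being the sole term, with Benjamini-Hochberg adjustment over 14665 genes. The SE is the size of the log2 fold change divided by the square root of F. The test was checked on simulated counts. Alternatives were 3 other scalings, 2 other filters, DESeq2 1.42.0, limma 3.58.1 (voom), a replicate block, and dropping each library in turn.

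Members and gene lists were chosen with earlier results of these data known, so no p is adjusted over a list. The naming rule allowed every member with 10 counts in 3 libraries and, from each list, up to 3 called genes in each direction, with NPAT, SLBP, CASP8AP2, CDK12, CCNK and CDK13 always. HIST1H1A, HIST1H1B, HIST1H1E, HIST1H1T, HIST1H4J, HIST1H2AK, HIST1H2AL, H3F3A, H3F3C and the duplicated HIST2 and H2AFB genes were named outside it, to account for members with few reads. Stem-loops, 100-base windows and gene overlaps come from GENCODE 29 on GRCh38, and promoter sequences from RefSeq on GRCh38.p14. No coordinates were converted.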

Additional observations from a re-analysis of the deposited data

How the results depend on the processing

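H1F0, H2AFJ and HIST2H2BE kept their direction and call under all 14 alternatives, CDK12 too, and no called member turned its sign under any. The counts of called members did not hold. HIST genes called lower, 5 as reported, numbered 3 with the size factors of DESeq2 and with 10 counts in 3 libraries, 2 with no filter beyond 1 count, and 1 with upper-quartile factors, total counts or the DESeq2 Wald test. HIST genes called higher, 2 as reported, numbered 4 with total counts, 1 with limma-voom or with the replicate block, and 0 with the DESeq2 Wald test. H2AFX, the sole replacement gene called lower, left 0 with upper-quartile factors, total counts or the DESeq2 Wald test. Leaving out 1 library gave 1 to 5 HIST genes lower, 1 to 2 higher, and 0 to 1 replacement genes lower. The cause was not tested. The balance of all calls, 2371 higher and 2772 lower, became 3164 and 2144 with upper-quartile factors and 3325 and 2064 with total counts, which raised the median log2 fold change of all genes by at most 0.05.

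The list counts were recomputed after the data were seen. With upper-quartile factors and with total counts, 7 transcription and processing genes were higher and 0 decay genes lower, while 1 and 2 decay genes were higher. With total counts 4 chaperone genes were higher, and 1 with the DESeq2 Wald test. Leaving out 1 library gave 5 to 9 processing genes lower, 0 to 1 decay genes in each direction, 0 to 3 chaperone genes higher and 6 to 10 lower, and 0 to 1 S-phase genes higher.

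Same-numbered libraries did not deviate together (correlations of -0.067 to 0.06), so the values gave no sign of pairing by number. Whether libraries of the same number were handled together cannot be told from these correlations. With the replicate block 4 HIST genes were lower and 1 higher, 2 replacement genes higher and 1 lower. Depth limits the 56 rows with at most 58 reads, for which no difference was tested, and HIST1H1D, whose call rests on 97 reads in all.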
